A study of Homo sapiens with 12 samples.

Results

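The 47 genes described here encode the cytosolic factors that begin, carry on and end protein synthesis: the eukaryotic initiation factors (eIF), the elongation factors eEF1 and eEF2 with eIF5A, 2 inhibitors of the cap-binding protein eIF4E, and 2 release factors. They were chosen by gene symbol, with earlier results of these data known, and all 47 were found among the 61782 gene rows of each deposited table. Of these, 39 stood in rows with 1 gene name. The other 8 (EEF1E1, EIF4A1, EEF1G, EEF2, EIF3L, EIF4E, EIF4G2 and EIF6) stood in joined rows, which carry the names of several overlapping genes, so that their values cannot be assigned to 1 gene. EEF1D and EIF3F had a second row that was listed at 0 throughout, and the row with values was used. The study asked which mRNAs are held by Argonaute 2 (AGO2), the protein that carries microRNAs to their targets, once miR-143 is overexpressed. K562 is a human leukemia cell line with erythroid traits, and per the methods the cells also carried C/EBPα fused to an estrogen receptor domain (K562-C/EBPα-ER). They had been transduced with the lentiviral vector pLV-miR-143 or pLV-control. The methods name puromycin selection or fluorescence sorting of transduced cells and do not say which was used here. RNA was precipitated from lysates of each population with an antibody to AGO2 (here called AGO) or, as the mock control, with immunoglobulin of no set target (IgG). The groups control_IgG, control_AGO, miR143_IgG and miR143_AGO have 3 samples each by their titles. Each value analysed is the authors' average FPKM of 1 group (fragments counted per length of transcript and per size of library), so the differences described have no replicate check and no test was possible. Where 4 values follow each other, they are in the order control_IgG, control_AGO, miR143_IgG, miR143_AGO.

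Most mRNAs are translated after eIF4F, made of the cap-binding eIF4E, the scaffold eIF4G and the helicase eIF4A, has recruited a small ribosomal subunit that carries eIF3, eIF1, eIF1A, eIF5 and the initiator tRNA brought by eIF2. The exchange factor eIF2B reloads eIF2 with GTP, the 4E-binding proteins hold eIF4E back while mTOR is inactive, and eEF1, eEF2 and eIF5A serve the elongating ribosome until the release factors free the finished chain. Several of these mRNAs, like those of the ribosomal proteins, begin with a terminal oligopyrimidine (TOP) tract through which mTOR controls their own translation. A microRNA guides AGO2 to mRNAs whose 3′ UTR pairs with its seed.

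The sequences that could tie these mRNAs to miR-143 are shown first, with the seed (bases 2 to 8) of the microRNA and the matching bases of each mRNA in capitals. The microRNA is from RefSeq (GRCh38.p14), and the mRNA stretches of 22 bases are from 3′ UTRs of GENCODE 29 (GRCh38), written 5′ to 3′ on the mRNA strand and located by the matching bases. EIF2B2 and EIF3F held the 8mer TCATCTCA, EIF5 and EIF2B4 the 7mer-m8 TCATCTC, and EIF3A, EIF3M and EIF4E the 7mer-A1 CATCTCA.
hsa-miR-143-3p, chr5:149428978-149428998, plus strand: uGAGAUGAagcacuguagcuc
EIF2B2, chr14:75010168-75010175, plus strand: cacagtcttgggttTCATCTCA
EIF3F, chr11:8000202-8000209, plus strand: agaagagtgagactTCATCTCA
EIF5, chr14:103344089-103344095, plus strand: agggagtcactttggTCATCTC
EIF2B4, chr2:27366929-27366935, minus strand: ctggtatatggatgcTCATCTC
EIF3A, chr10:119033967-119033973, minus strand: gtccaaaagactttgCATCTCA
EIF3M, chr11:32604916-32604922, plus strand: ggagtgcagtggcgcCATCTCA
EIF4E, chr4:98875972-98875978, minus strand: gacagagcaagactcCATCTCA

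These 7 genes were 14.9% of the 47, against 24.7% of 8289 coding rows whose longest 3′ UTR held one of the 3 matches. The share was the same when every annotated 3′ UTR was searched. Each of the 7 matches lay in only 1 of the 2 to 6 annotated 3′ UTRs of its gene, the longest. The 22 bases shown for EIF4E occur in the 3′ UTRs of 51 genes and those for EIF3M in 7 genes, whereas the other 5 occur in 1 gene each. A match describes letters and not binding.

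The libraries differed in composition and depth. Rows of 1 coding gene took 7.90%, 42.0%, 8.38% and 37.2% of the summed FPKM, a smaller share in the mock precipitates. The number of fragments is unknown, but the lowest values above 0, taken as FPKM times transcript length, were 13.5, 1.09 and 1.64 times those of miR143_AGO in the other groups, in the order given. A low FPKM in control_IgG therefore rests on fewer fragments than the same FPKM elsewhere. The row of MIR143 read 0, 0, 44781 and 118393 FPKM, as the vectors named in the labels require. GATA1, a master regulator of erythroid genes, ranged from 52.0 to 73.2 FPKM. Of 8 marker genes of other cells, 4 (CD3E, MS4A1, MPO and ALB) were at 0 in all groups, and the 8 summed to 6.27, 1.29, 9.71 and 2.13 FPKM. Their part in the results was not tested.

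The factor mRNAs were abundant in all precipitates, and their median position among coding genes was lower in the AGO than in the IgG precipitates. Their median was 56.6, 20.01, 41.1 and 23.4 FPKM. Among 8326 coding rows the median member stood at percentiles 93.2, 83.2, 90.5 and 87.0. In control cells 31 of the 47 had a lower percentile in AGO than in IgG and 15 a higher one. In miR-143 cells 34 had a lower and 13 a higher one. The share of all coding rows that moved in this way was not counted. Genes that stand high in IgG also have more room to fall than to rise. All 47 together took 0.200%, 0.784%, 0.233% and 0.731% of the summed FPKM. The 39 members in rows of their own took 1.69%, 0.993%, 1.67% and 1.04% of the coding FPKM. The factors were thus a larger share of all RNA but a smaller share of coding RNA in the AGO precipitates. In such pooled RNA, fewer copies of an mRNA per cell, fewer cells and more of other RNAs cannot be told apart.

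**Figure D1:**
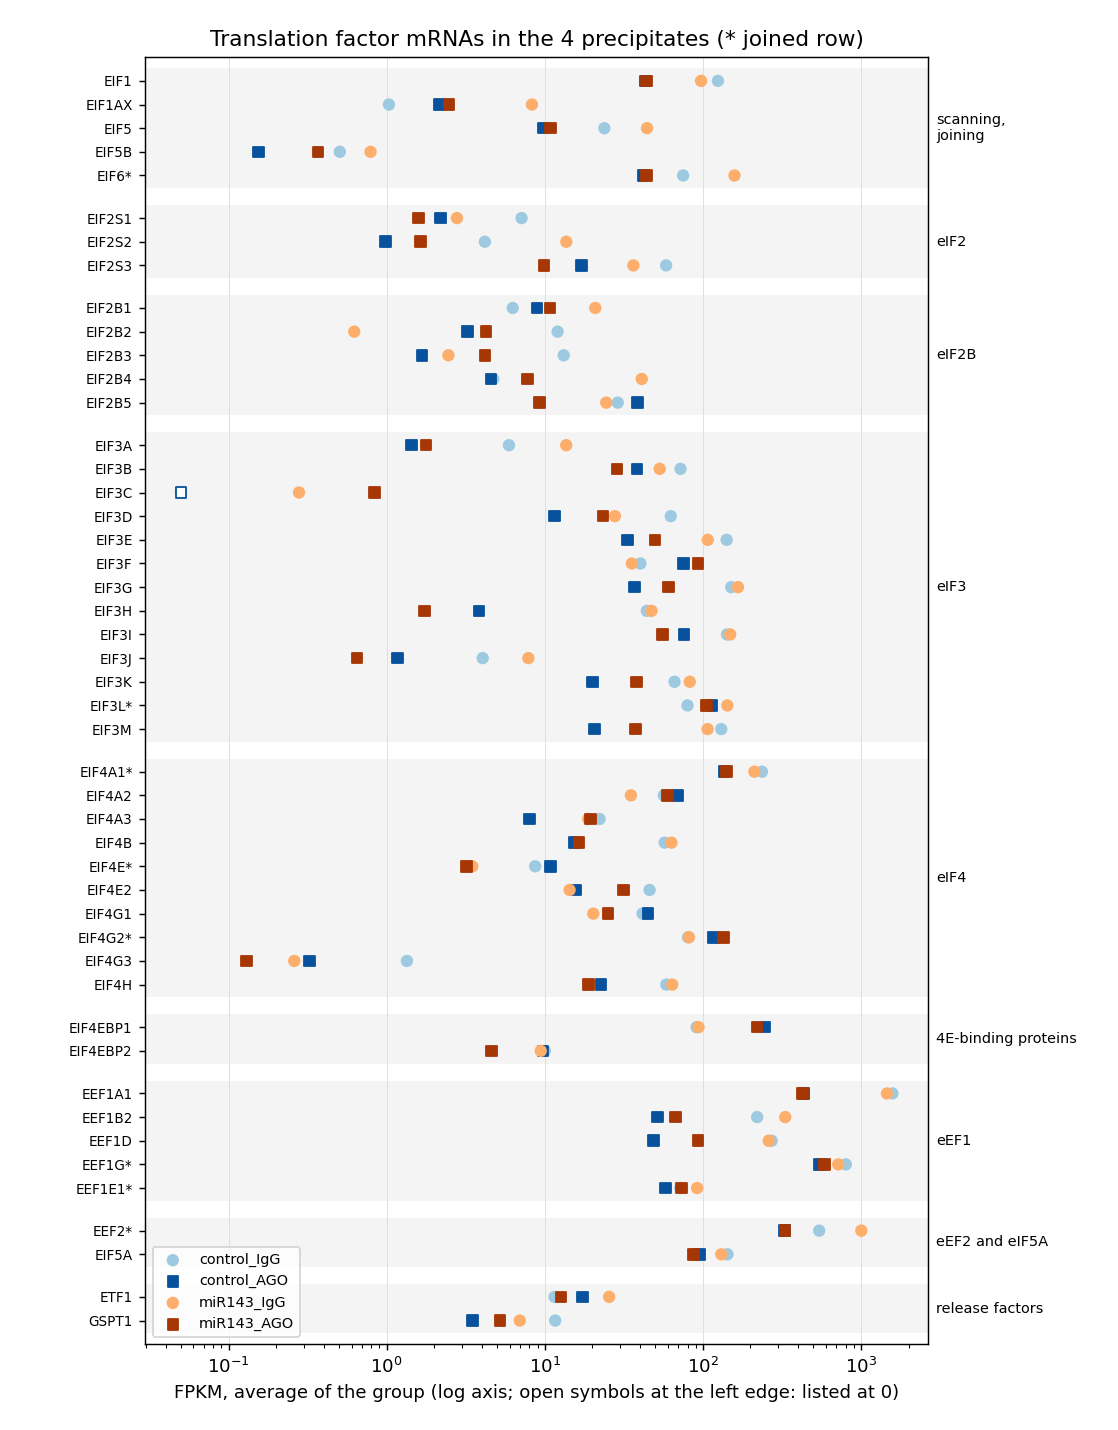
FPKM (log axis) of the 47 factor genes, by complex, in the 4 groups; circles are IgG and squares AGO precipitates, blue is control and orange is miR-143, and an asterisk marks a joined row. EEF1A1 reached 1579.5 FPKM in control_IgG, while EIF5B and EIF3C stayed under 1 FPKM in all groups, and for most genes the 2 squares lie to the left of the 2 circles. The share of all rows in this order was not counted.

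The range was wide. EEF1A1 (chr6:73515750-73523797, minus strand), which delivers aminoacyl-tRNA to the ribosome, was the highest member in both IgG precipitates and made up 27.9%, 15.1%, 24.2% and 14.2% of the summed FPKM of all members. In both AGO precipitates the highest member was EEF1G, a structural subunit of eEF1, in a row joined with TUT1, at 545.7 and 590.1 FPKM. At the other end, EIF5B, the GTPase that joins the ribosomal subunits, was between 0.155 and 0.791 FPKM. EIF3C, a core subunit of eIF3, read 0, 0, 0.279 and 0.836 FPKM, and its near-identical copy EIF3CL was at 0 in all 4 groups, so that the value of EIF3C is uncertain. Of all 47 genes, 41 were at 1 FPKM or more in every group.

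For the comparison of AGO with IgG, the log2 ratio of FPKM + 1 was used over rows with at least 1 FPKM in 1 of the groups, which understates the change of low genes, and a difference was counted from 2-fold upwards on this scale. In control cells 45 members could be compared, and 23 of them (51.1%) were at least 2-fold lower in AGO, against 36.2% of 9919 rows, and 1 (2.22%) was at least 2-fold higher, against 34.5% of rows. In miR-143 cells 22 of 44 (50%) were lower, against 33.5% of 10643 rows, and 4 (9.09%) were higher, against 26.6%. Among rows with a mean of 10 FPKM or more, which match these genes better in level, 39.9% were lower and 25.7% higher in control cells, and 36.4% were lower and 22.8% higher in miR-143 cells. As deposited, members were thus lower more often and higher less often than rows of either kind. The median log2 ratio of the members was −1.20 for control and −1.03 for miR-143 cells, against −0.19 and −0.22 for all rows and −0.49 and −0.39 for the abundant rows. At a stricter threshold of 10-fold on the same scale, none was called in control cells (4.98% of rows lower, 4.38% higher). In miR-143 cells 1 member, EIF3H, was 10-fold lower (3.67% of rows) and none higher (1.6% of rows). By plain FPKM, without the added 1, EIF3H was 11.5-fold lower in control and 27.2-fold lower in miR-143 cells, and EIF3J 12.1-fold lower in miR-143 cells. The split depended on scaling. With the groups brought to the same median, 14 members were lower (31.1%) and 8 higher (17.8%) in control cells, against 27.6% and 40.8% of rows. Scaling to the same median, upper quartile or coding sum raised the median of all rows by 0.53, 0.33 and 0.44 for control cells and by 0.24, 0.36 and 0.41 for those with miR-143. Relative to all rows, the member median lay between −1.01 and −0.94 (control) and between −0.80 and −0.73 (miR-143) under these settings and as deposited. For control cells it was −0.35 when a mean of 5 FPKM was required of each row. Of the members kept by that filter, 19 of 38 (50%) were lower in AGO, against 44.3% of rows, a small difference. Under at least 1 scaling the ratios of EIF2B4, EIF4EBP2, EIF5A, EEF1G and EEF1E1 turned from below to above 0 in control cells, and those of EIF3D, EIF3L, EIF4E, GSPT1, EEF1G and EEF1E1 in miR-143 cells.

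In both cell populations 16 of 44 members (36.4%) were at least 2-fold lower in AGO, against 16.4% of 8648 rows and 23.2% of 3645 abundant rows. They were EIF1, EIF5, EIF2S2, EIF2S3, 7 subunits of eIF3 (EIF3A, EIF3E, EIF3G, EIF3H, EIF3J, EIF3K and EIF3M), EIF4B, EIF4H, EEF1A1, EEF1B2 and EEF1D. The number was 9 with the groups at the same median (20.5%, against 11.8% of rows), 10 at the same upper quartile (22.7%, against 12.1%) and 7 at the same coding sum (15.9%, against 11.1%). The members EEF1A1, EEF1B2, EIF2S3, EIF3A, EIF3H and EIF4B were among them each time. EIF4EBP1 alone was at least 2-fold higher in both populations, against 15% of rows, and the 3 scalings gave 3, 2 and 3 such members. Without the threshold, 29 of the 44 members were below 0 in both populations, 5 were above 0 in both and 10 had opposite directions. Of the 8648 rows, 2989 were below 0 in both, 2664 above in both and 2995 opposite. Of the 3645 abundant rows these were 1613, 979 and 1053. Across the 44 members the ratios of the 2 populations correlated with Pearson's r = 0.432 and Spearman's rho = 0.381, against 0.423 and 0.408 over all rows and 0.515 for both over abundant rows. These points share 4 library pools and are not replicates. The agreement between populations was thus no closer for the factor genes than for other rows.

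**Figure D2:**
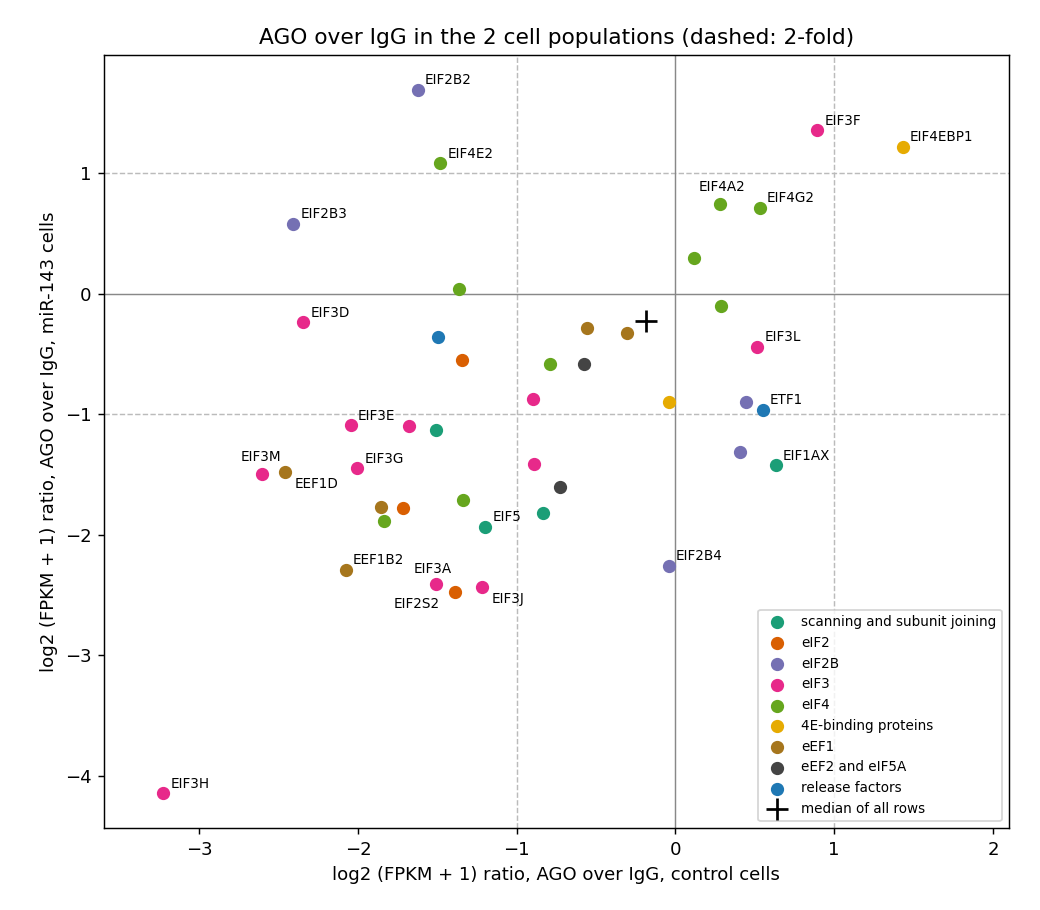
Each point is 1 factor gene, coloured by complex, with its AGO over IgG ratio, log2 (FPKM + 1), for control cells on the x axis and for miR-143 cells on the y axis; dashed lines mark 2-fold and the cross marks the median of all rows (−0.19, −0.22). Most points lie at the lower left, EIF3H is the lowest in both populations, and EIF4EBP1 and EIF3F stand at the upper right.

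The complexes are described in the order in which they act, with FPKM in the order control_IgG, control_AGO, miR143_IgG and miR143_AGO. The factors of scanning and subunit joining had median log2 ratios of −1.01 in control and −1.62 in miR-143 cells (4 genes compared). EIF1, which keeps the scanning ribosome open and selects the start codon, was at 125, 43.2, 97.5 and 43.9 FPKM. EIF5, which triggers GTP hydrolysis by eIF2 at the start codon, was at 23.8, 9.82, 44.4 and 10.9 FPKM. Both were lower in the 2 AGO precipitates than in the 2 IgG precipitates, without overlap. The share of all rows without such overlap was not counted, here or for the genes below. EIF6, which keeps the large subunit from joining too early and lies in a joined row, was at 75.03, 41.7, 159 and 44.2 FPKM and also did not overlap. EIF1AX, the partner of eIF1, was at 1.03, 2.15, 8.30 and 2.47 FPKM. Its 2 AGO values lay between the 2 IgG values, so that its log2 ratio was 0.63 for control but −1.42 for miR-143 cells. The 2 pseudogene names of EIF1AX summed to 0, 5.68, 38.6 and 0 FPKM, so that its value is uncertain.

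The 3 subunits of eIF2, which brings the initiator tRNA, were all below 0 in both populations, with medians of −1.39 and −1.77. EIF2S1, the subunit that stress kinases phosphorylate, was at 7.14, 2.20, 2.78 and 1.59 FPKM. EIF2S2 was at 4.18, 0.982, 13.7 and 1.64 FPKM, and its 4 pseudogene names summed to 13.3, 0.430, 0.327 and 0 FPKM. EIF2S3, the subunit that binds GTP, was at 58.5, 17.1, 36.4 and 9.92 FPKM. Each subunit was lower in both AGO than in both IgG precipitates, while the order of the 2 IgG values differed between subunits.

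The 5 subunits of eIF2B, the exchange factor of eIF2, did not move together. EIF2B2 was at 12.1, 3.24, 0.624 and 4.25 FPKM, a log2 ratio of AGO over IgG of −1.62 in control and 1.69 in miR-143 cells. EIF2B3 was at 13.2, 1.67, 2.46 and 4.18 FPKM, with ratios of −2.41 and 0.58. EIF2B4 was at 4.73, 4.56, 41.1 and 7.81 FPKM, with ratios of −0.04 and −2.26. In these 3 genes it was the IgG value that differed most between populations. EIF2B1 was at 6.27, 8.92, 20.9 and 10.8 FPKM, and EIF2B5, which holds the catalytic domain, at 28.95, 38.7, 24.5 and 9.25 FPKM. No subunit of eIF2B was at least 2-fold lower in both populations, against 16.4% of rows, and 5 genes are too few to set apart from that share. The median was −0.04 in control cells, where it became positive under all 3 scalings (up to 0.49), and −0.89 in miR-143 cells.

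The 13 subunits of eIF3, the scaffold that binds the small ribosomal subunit, held 8 of the 23 members at least 2-fold lower in control cells and 8 of the 22 in miR-143 cells. These were 8 of the 12 compared (66.7%), against 36.2% and 33.5% of rows, with medians of −1.59 and −1.25 that stayed below 0 under each scaling. EIF3H was at 44.2, 3.83, 47.3 and 1.74 FPKM, with log2 ratios of −3.23 and −4.14, the lowest of all members in both populations. EIF3M was at 131, 20.7, 107 and 37.4 FPKM, and EIF3F (chr11:7970251-8001862, plus strand) at 40.3, 75.6, 35.6 and 92.9 FPKM. These 3 subunits form 1 module of eIF3, and yet EIF3F was above IgG in both populations, with ratios of 0.89 and 1.36. The 2 pseudogene names of EIF3F summed to 10.4, 30.9, 8.33 and 8.30 FPKM, and reads of such copies can be shared with the gene.

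Among the other subunits the core subunit EIF3A was at 5.94, 1.44, 13.7 and 1.77 FPKM. EIF3G was at 151, 36.9, 167 and 60.7 FPKM, EIF3E at 141, 33.5, 107 and 49.9 FPKM, and EIF3K at 66.2, 20.01, 82.7 and 38.1 FPKM. The loosely bound EIF3J was at 4.05, 1.17, 7.88 and 0.649 FPKM. In these 5 genes the AGO values lay under both IgG values. EIF3B, the core subunit that carries EIF3G and EIF3I, was at 72.2, 38.4, 53.3 and 28.7 FPKM, and EIF3I at 142, 76.0, 149 and 55.5 FPKM, also without overlap but closer together. EIF3D, the subunit that can bind a cap, was at 62.7, 11.5, 27.8 and 23.4 FPKM, so that it was low in control_AGO (−2.35) but close to IgG in miR-143 cells (−0.24). EIF3L, in a joined row, was at 79.9, 115, 143 and 105 FPKM and had opposite signs.

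The eIF4 group, which finds and unwinds the cap end of the mRNA, held members on both sides of IgG. EIF4G1, the main scaffold (chr3:184314495-184335358, plus strand), was at 41.5, 45.0, 20.3 and 25.2 FPKM. EIF4G2, a related scaffold that lacks the eIF4E site, in a row joined with SNORD97, was at 80.5, 117, 81.7 and 135 FPKM. The helicase EIF4A2 (chr3:186783205-186789900, plus strand) was at 56.6, 69.1, 35.1 and 59.6 FPKM. These 3 were slightly above IgG in both populations, with log2 ratios between 0.11 and 0.75. Small RNA genes lie within the loci of EIF4A2 (6 of them) and EIF4G1 (SNORD66), and the row of EIF4G2 is joined with one, and their part in these values was not tested. The helicase cofactors were below IgG in both populations: EIF4B was at 57.4, 15.3, 63.3 and 16.4 FPKM, and EIF4H at 58.7, 22.6, 64.0 and 18.9 FPKM. The 2 pseudogene names of EIF4H summed to 45.3, 16.9, 63.3 and 18.9 FPKM, close to the gene itself, so that its value is uncertain.

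The remaining eIF4 members had no common pattern. EIF4A1, the main helicase, in a row joined with CD68 and SENP3, was at 236, 136, 212 and 141 FPKM. EIF4A3, the helicase of the exon junction complex, was at 22.2, 8.03, 18.8 and 19.4 FPKM, low in control_AGO only. EIF4E2, a cap-binding homologue that represses translation, was at 46.0, 15.8, 14.4 and 31.6 FPKM and turned from −1.48 in control to 1.08 in miR-143 cells. EIF4E itself (chr4:98871684-98930637, minus strand), in a row joined with the pseudogene TBCAP3, was at 8.70, 10.8, 3.48 and 3.19 FPKM and near IgG in both populations. The 5 pseudogene names of EIF4E summed to 54.7, 8.11, 41.1 and 14.1 FPKM, above its own row except in control_AGO, so that its value is uncertain. EIF4G3 was at 1.34, 0.325, 0.261 and 0.130 FPKM and was compared only where it reached 1 FPKM. The group median was −0.81 in control cells (10 genes) and 0.04 in miR-143 cells (9 genes).

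EIF4EBP1, the 4E-binding protein that mTOR phosphorylates, was, as deposited, the only member at least 2-fold above IgG in both populations. It was at 91.3, 248, 93.9 and 220.2 FPKM, log2 ratios of 1.43 and 1.22, and the 2 AGO values were similar, as were the 2 IgG values. It stayed at least 2-fold higher in both populations under each scaling, and EIF3F joined it under all 3. Its paralog EIF4EBP2 was at 10.0, 9.73, 9.43 and 4.60 FPKM and was not above IgG in either. Neither 4E-binding protein was called 2-fold lower in control or miR-143 cells, against 36.2% and 33.5% of rows. With 2 genes this cannot be told apart from the share of rows. By plain FPKM, EIF4EBP2 was 2.05-fold lower in AGO in miR-143 cells.

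The eEF1 group was low in AGO, with medians of −1.86 in control and −1.48 in miR-143 cells. As deposited, all 5 members were below 0 in both, but EEF1G and EEF1E1 turned above 0 under at least 1 scaling. EEF1A1 was at 1579.5, 436, 1460.2 and 428 FPKM. EEF1B2, which recharges eEF1A with GTP, was at 220.4, 51.5, 332 and 67.2 FPKM, and EEF1D, another exchange subunit, at 272, 48.7, 261 and 93.2 FPKM. In these 3 genes both AGO values were well under both IgG values. The 39 pseudogene names of EEF1A1 summed to 33.01, 6.13, 27.6 and 8.84 FPKM, a small amount beside the gene. The 2 joined rows of the group were closer to IgG: EEF1G was at 802, 546, 718 and 590.1 FPKM, and EEF1E1, a partner of the tRNA synthetases in a row joined with TXNDC5, at 72.0, 58.2, 91.99 and 73.2 FPKM.

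EEF2, the translocase, in a row joined with SNORD37, was at 544, 328, 1005 and 329.7 FPKM, so that its lower ratio in miR-143 cells (−1.61, against −0.73) came with a higher miR143_IgG value and equal AGO values. EIF5A, which helps the ribosome over difficult peptide bonds, was at 143, 95.5, 131 and 87.0 FPKM, with ratios of −0.58 in both populations. The release factor ETF1 (eRF1) was at 11.5, 17.4, 25.5 and 12.6 FPKM, with opposite signs. GSPT1 (eRF3), its GTPase partner, was at 11.6, 3.49, 6.95 and 5.199 FPKM. The median of the release factors, −0.47 in control cells, turned to 0.10 with groups at the same median.

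Set beside other genes of protein synthesis, the factors lay between the ribosomal proteins and the rest. The 79 cytosolic ribosomal protein genes had median log2 ratios of −2.17 in control and −2.11 in miR-143 cells, and 63 and 66 of them were at least 2-fold lower in AGO. The mitochondrial ribosomal proteins were at −0.55 and −0.86 (74 and 77 compared) and the mitochondrial translation factors at −0.83 and −0.92 (8 and 9 compared). The 50 other genes of the pathway (eIF2 kinases and other kinases, poly(A)-binding proteins, regulators, paralogs, recycling factors and enzymes that modify eIF5A or eEF2) were at −0.41 and −0.79. Of these, 13 of 44 (29.5%) were at least 2-fold higher and 16 (36.4%) lower in control cells, against 34.5% and 36.2% of rows. With miR-143, 6 of 40 (15.0%) were higher and 15 (37.5%) lower, against 26.6% and 33.5%.

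**Figure D3:**
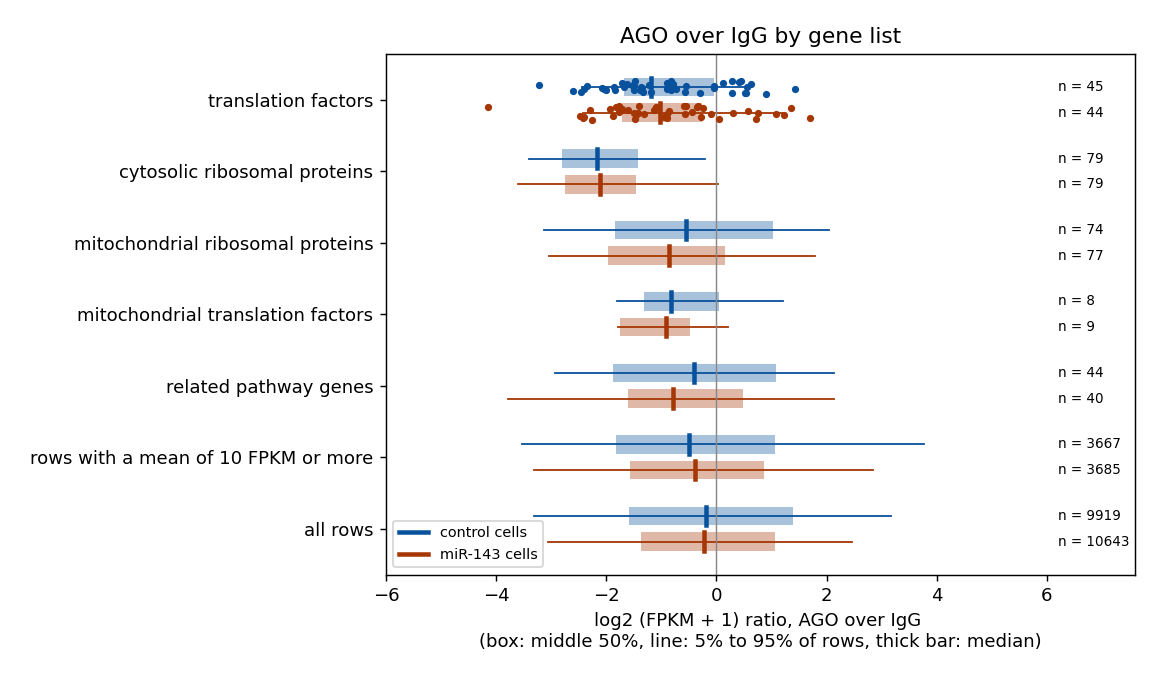
Log2 (FPKM + 1) ratio of AGO over IgG for each gene list in control (blue) and miR-143 cells (orange); the box spans the middle 50% of rows, the line 5% to 95%, the thick bar is the median, points are single factor genes and n is the number compared. The median of the factors (−1.20 and −1.03) lies between that of the cytosolic ribosomal proteins (−2.17 and −2.11) and that of all rows (−0.19 and −0.22).

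The members known for a TOP tract had a lower median than the others. For the 10 members on this list (EEF1A1, EEF1B2, EEF1D, EEF1G, EEF2, EIF3A, EIF3E, EIF3F, EIF3H and EIF4B) the median was −1.85 in control and −1.69 in miR-143 cells, against −0.89 and −0.88 for the other members, and 7 and 8 of the 10 were at least 2-fold lower. Of the other members 16 of 35 and 14 of 34 were 2-fold lower, and of all rows 36.2% and 33.5%. Not every member of the list was low: EIF3F had ratios of 0.89 and 1.36, EEF1G of −0.56 and −0.28, and EEF2 of −0.73 in control cells. The annotated starts were also read from the RefSeq promoter table (GRCh38.p14), where a C followed by 4 or more pyrimidines, beginning within 5 bases of the start, was taken as TOP-like. Such a start was present in 18 of 39 members with an entry (46.2%), in 54 of 63 ribosomal protein genes (85.7%) and in 21.1% of all 35116 promoters. The units differ, since a gene counted if any of its promoters had such a start, whereas the last share is over single promoters. Members with such a start had medians of −1.48 and −1.13, and those without of −0.81 and −0.58. Among all members compared, the AGO over IgG ratio of control cells correlated weakly with the length of the 3′ UTR (Spearman's rho = 0.11, n = 45), the length of the transcript (0.20) and its GC content (0.02). For miR-143 cells the values were −0.03, 0.03 and 0.03 (n = 44). Over rows of 1 coding gene they were 0.06, 0.11 and 0.19 in control cells (n = 7219) and 0.03, 0.08 and 0.26 in miR-143 cells (n = 7650). In each of these correlations the genes share 2 pools of libraries.

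The central comparison of the study set miR143_AGO against control_AGO, and it showed few differences among these genes. Of 44 members compared, 1 was at least 2-fold higher in miR143_AGO (2.27%), against 17.7% of 9798 rows, and 2 were at least 2-fold lower (4.55%), against 14.1%. In rows with a mean of 10 FPKM or more the shares were 11.1% and 12.9%. At the same upper quartile 6 members were higher (13.6%, against 22.6% of rows), and with the smaller pseudocounts 3 were higher and 4 lower. No member reached 10-fold (0.286% of rows higher, 0.745% lower). The median of the members was 0.10, against 0.17 for all rows, and it turned to −0.01 with groups at the same median. Members were thus 2-fold apart less often than all rows under each of these settings.

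EIF2B5 (chr3:184135038-184146112, plus strand) was the lowest, at 38.7 FPKM in control_AGO and 9.25 in miR143_AGO, a log2 ratio of −1.95. EIF4E, in its joined row, was at 10.8 and 3.19 FPKM (−1.498), and EIF4A3 (chr17:80135214-80147183, minus strand) was the highest, at 8.03 and 19.4 FPKM (1.18). All 3 stayed past 2-fold under each scaling. The value of EIF4E is uncertain, since its pseudogene names summed to 8.11 FPKM in control_AGO and 14.1 FPKM in miR143_AGO. For EIF4E the IgG precipitates differed in the same direction, from 8.70 to 3.48 FPKM (−1.11), for EIF2B5 they differed little, from 28.95 to 24.5 FPKM (−0.23), and for EIF4A3 from 22.2 to 18.8 FPKM (−0.23). The next lowest in rows of 1 name were EIF4EBP2 (−0.94), EIF3H (−0.82), EIF4G1 (−0.81) and EIF2S3 (−0.73), and the next highest were EIF3D (0.96), EIF2B3 (0.95), EIF4E2 (0.95) and EEF1D (0.92). Some complexes moved little: the 4 factors of scanning and joining lay between 0.02 and 0.14, and EEF1A1 (−0.03) and EEF2 (0.01) were nearly equal in both.

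Of the 7 members with a seed match, 6 lay above 0 in the AGO pair and EIF4E, in its joined row, lay below. Of all 44 members compared 27 lay above 0, and of 9798 rows 5630 did. With 7 genes the count cannot be told apart from these shares. Their median log2 ratio in the AGO pair was 0.29, against 0.05 for the 37 others compared, while coding rows with a match were at 0.24 and those without at 0.14. The 2 members with the 8mer were at 0.31 (EIF2B2) and 0.29 (EIF3F), and those with the 7mer-m8 at 0.14 (EIF5) and 0.66 (EIF2B4). With the 7mer-A1, EIF3A was at 0.19, EIF3M at 0.82 and EIF4E at −1.498. Of EIF2B5 and EIF4A3, the other 2 genes past 2-fold, neither held a match. The match of EIF4E, the one member that was 2-fold apart and held one, lies in a stretch that occurs in 51 genes.

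**Figure D4:**
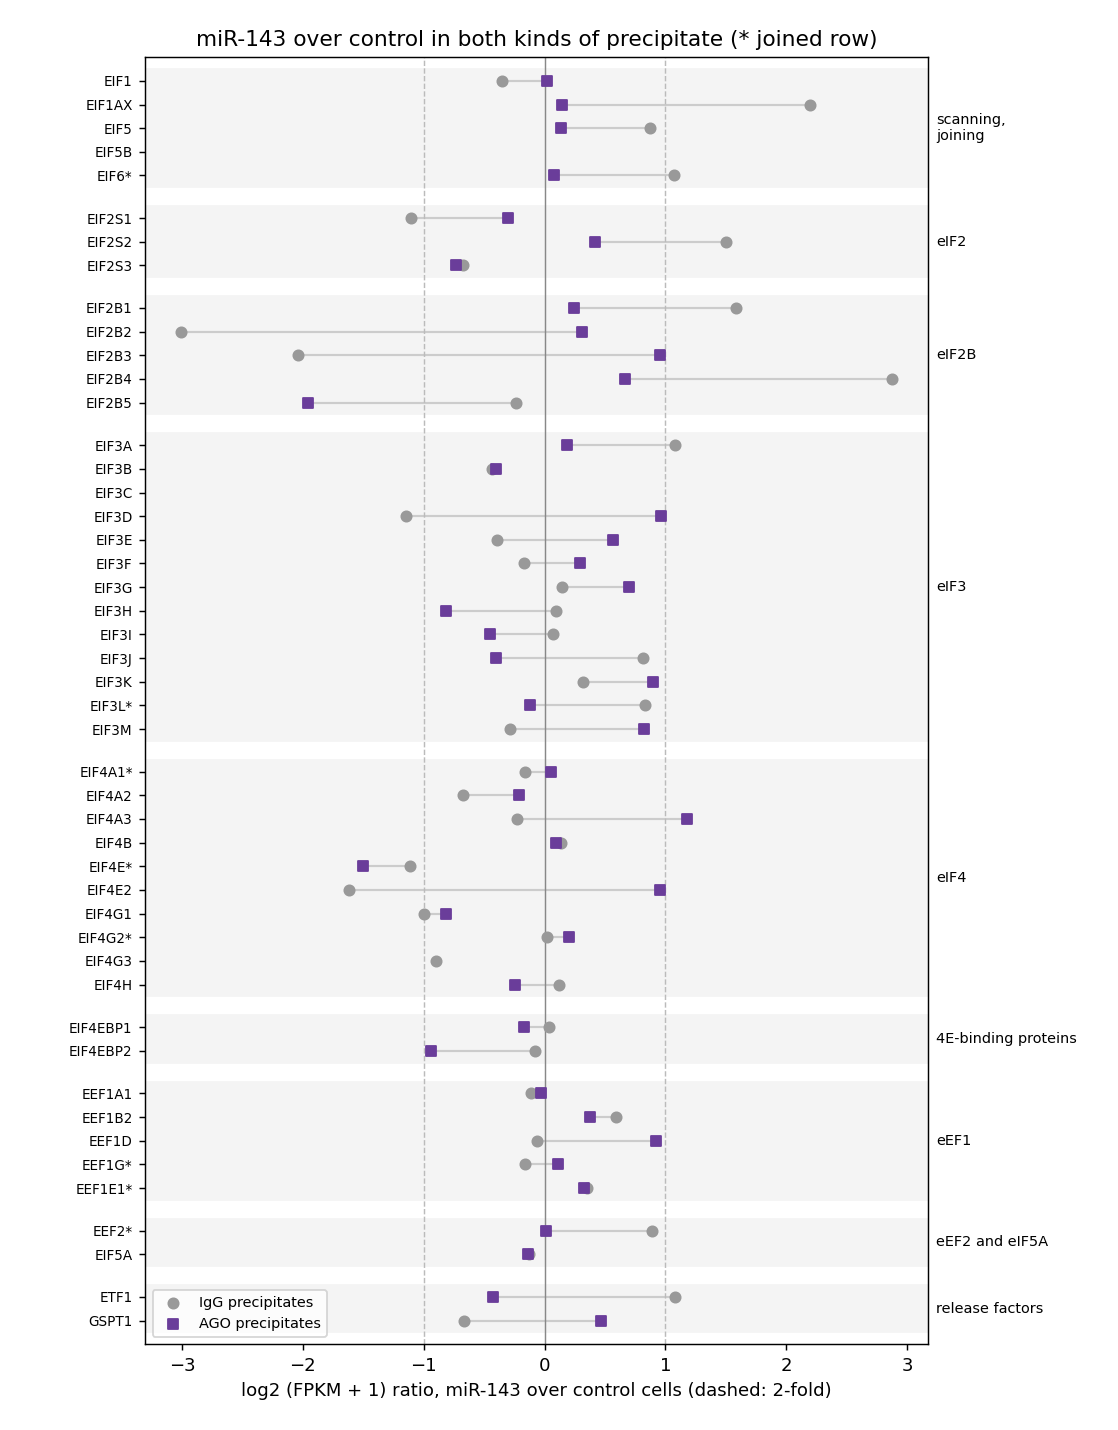
Log2 (FPKM + 1) ratio of miR-143 over control cells for each factor gene in the AGO (purple squares) and the IgG precipitates (grey circles), by complex; dashed lines mark 2-fold, an asterisk a joined row, and genes without a symbol were below 1 FPKM in the groups compared. The squares stay within 2-fold except EIF2B5, EIF4E and EIF4A3, while the circles spread from −3.01 (EIF2B2) to 2.88 (EIF2B4).

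In the IgG precipitates, the background of that comparison, the same genes were further apart. Of 45 members compared, 7 were at least 2-fold higher in miR143_IgG (15.6%), against 36.2% of 10172 rows, and 6 were lower (13.3%), against 26.8%. In either direction 63% of all rows and 46.2% of abundant rows were 2-fold apart, against 31.8% and 24% in the AGO pair. EIF2B4 (2.88), EIF1AX (2.19), EIF2B1 (1.59), EIF2S2 (1.504) and ETF1 (1.08) were the highest in rows of 1 name, and EIF2B2 (−3.01), EIF2B3 (−2.04), EIF4E2 (−1.61), EIF3D (−1.15) and EIF2S1 (−1.10) the lowest. In rows with a mean of 10 FPKM or more 21.9% were higher and 24.3% lower. Subunits of eIF2B and of eIF2 thus stood on both sides in the mock precipitates. The abundant eEF1 members lay between −0.16 and 0.59.

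The IgG-corrected ratio, the AGO over IgG ratio of miR-143 cells less that of control cells, combined both differences. Of 45 members, 7 were at least 2-fold higher (29% of 11914 rows) and 7 lower (33.5% of rows), with a median of −0.00. With the groups at the same median, 5 were higher and 14 lower (31.1%, against 36.4% of rows), with a median of −0.35. The highest were EIF2B2 (3.32), EIF2B3 (2.99), EIF4E2 (2.57) and EIF3D (2.11), and the lowest EIF2B4 (−2.21), EIF1AX (−2.05) and EIF2B5 (−1.72). Of these 7, only EIF2B5 was 2-fold apart in the AGO pair itself, and the other 6 were 2-fold apart in the IgG pair. EIF4A3 stayed higher after this correction (1.41) and EIF4E did not stay 2-fold lower (−0.38).

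Of the 50 other genes of the pathway, 38 could be compared between the AGO precipitates, and 7 (18.4%) were at least 2-fold higher and 6 (15.8%) lower in miR143_AGO, near the 17.7% and 14.1% of all rows, with none past 10-fold. Lowest where both values reached 1 FPKM was CYFIP1, a partner of eIF4E, from 54.3 to 10.5 FPKM (−2.26). It was followed by EEF2K, the kinase that inhibits eEF2, from 28.4 to 6.58 FPKM (−1.96), and the alternative initiation factor EIF2D, from 54.2 to 19.9 FPKM (−1.40). The highest were MKNK1, a kinase of eIF4E, in a row joined with MOB3C, from 4.38 to 15.2 FPKM (1.59), EIF1AD, from 4.80 to 14.3 FPKM (1.40), and DPH2, which helps to make the diphthamide of eEF2, from 5.01 to 11.6 FPKM (1.07).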

How the data were processed

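RNA from AGO2 or IgG precipitates of K562 cells was depleted of ribosomal RNA and sequenced as paired ends per the labels, whereas the methods name a TruSeq RNA kit. The authors processed reads with TopHat and Cufflinks (build hg38 per the submitters' processing notes; versions and annotation are not given in the sources used here) and deposited 1 average FPKM per row and group, in 4 tables. FPKM divides by each library's total, so abundant RNAs lower all other values. Groups came from sample titles. Fragment numbers and values of single samples were not analysed here, so ratios replaced the limma test planned for values per replicate.

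Ratios were log2((FPKM + 1)/(FPKM + 1)) over rows of at least 1 FPKM in 1 or more compared groups, computed on all rows (Python 3.11.15, pandas 2.3.3, SciPy 1.17.1) and checked on simulated data. The members, the complexes and the gene lists were chosen with earlier results of these data known. Named genes were the 5 highest and 5 lowest members per comparison in rows of 1 name with 1 FPKM in both groups, then all members. The other pathway genes named in the report were the 3 highest and 3 lowest in the AGO pair. Coordinates, transcripts and 3′ UTRs are from GENCODE 29 by symbol, which may differ from the authors' annotation. Alternatives were pseudocounts of 0.1 and 0.01, no filter, a mean of at least 5 FPKM, 3 scalings, leaving out joined rows, summing rows of the same name, plain ratios and all annotated 3′ UTRs.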

Additional observations from a re-analysis of the deposited data

How the results depend on the processing

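Of 217 values recomputed for 57 results, 200 did not move beyond the limit set (1.5 times for counts), and 17 did. Medians near 0 changed sign within that limit: at the same median to −0.01 in the AGO pair and 0.13 in the IgG pair, at the same upper quartile to 0.04 in the IgG pair and 0.04 in the IgG-corrected ratio, and without joined rows to 0.03 in the latter. For AGO over IgG in control cells, scaling to the same median gave 14 members at least 2-fold lower, 8 higher and a median log2 ratio of −0.60. The count of higher members was 2 with a pseudocount of 0.01 and at the same upper quartile, and 5 at the same coding sum. The difference between the member median and that of all rows shrank from −1.01 to −0.35 with a mean of at least 5 FPKM, where the rows left had a lower median (−0.70). In miR-143 cells 14 members were lower at the same coding sum. In the AGO pair the lower members were 4 with pseudocounts of 0.1 and 0.01 and 1 without joined rows, and the higher ones 3, 3, 6 at the same upper quartile and 2 at the same coding sum. At the same median, 3 members were lower in the IgG pair and 14 in the IgG-corrected ratio. Except where the rows left show it, the cause was not tested.

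No paired analysis was possible because each group has 1 average and no values per replicate, and leaving out replicates was not run for the same reason. Depth limits low members most in control_IgG, where the lowest values were 13.5 times those of miR143_AGO. Joined rows, pseudogene copies and small RNA genes inside loci limit single genes.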

Other observations

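Of the kinases and phosphatase subunits that control eIF2, eEF2 and eIF4E, 6 of 10 were at least 2-fold higher in AGO in control cells (34.5% of rows). The control_IgG values of these 6 were 0 (RPS6KB1), 0.0915 (EIF2AK2), 1.61 (MKNK1), 2.097 (EIF2AK4), 2.98 (EEF2K) and 11.9 FPKM (EIF2AK1). Low values in that group rest on fewer fragments than elsewhere. In miR-143 cells 3 of 9 (33.3%) were higher, near the 26.6% of rows. The group had median log2 ratios of 1.18 and 0.72 that stayed above 0 under each scaling. The genes named here were chosen after their values were seen, and values are in the order control_IgG, control_AGO, miR143_IgG, miR143_AGO. EIF2AK4, the eIF2 kinase that senses uncharged tRNA, was at 2.097, 11.8, 1.12 and 10.2 FPKM, so that both AGO values were above both IgG values. EEF2K was at 2.98, 28.4, 3.41 and 6.58 FPKM, also without overlap. MKNK1, MKNK2 and RPS6KB2 were above IgG in both populations, and PPP1R15A was below it in both. RPS6KB1 (1.32 and −1.81), EIF2AK1 (1.48 and −0.35) and PPP1R15B (−0.03 and 0.43) had opposite signs.

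In the list for ribosome rescue, recycling and reinitiation, 5 of 7 genes were at least 2-fold lower in AGO in control cells (36.2% of rows). In miR-143 cells 4 of 6 were lower (33.5% of rows), and the medians were −2.105 and −2.58. The list also held N6AMT1 and TRMT112, which are not factors of these kinds. TRMT112 (−2.17) was among the 5 in control cells, whereas N6AMT1 (1.17) was at least 2-fold higher there. ABCE1, which splits ribosomes after termination, was at 16.7, 0.294, 21.0 and 0.257 FPKM. HBS1L, a rescue factor for stalled ribosomes, was at 30.7, 3.23, 29.5 and 7.82 FPKM. In both genes both AGO values were below both IgG values, while those of HBS1L differed between the 2 AGO precipitates by a log2 ratio of 1.06. These lists hold 11 and 7 genes, no test was possible, and the share of all rows without overlap was not counted.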
